A study of Mus musculus with 40 samples.

Results

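The Ig kappa light chain locus lies on mouse chromosome 6, and it was taken here as the window chr6:67000000-71000000 of the mm9 build, a stretch of 4 Mb. Members were all deposited ChIP-seq regions that lie wholly inside this window, 1168 of the 863771 regions of the 7 targets. They comprised 124 regions of CTCF, 66 of NIPBL, 172 of RAD21, 175 of SMC3, 181 of WAPL, 245 of the libraries labelled H3K27ac and 205 of those labelled H3K4me1. The deposited annotation placed 162 V kappa genes in the window, 77 on the plus strand and 85 on the minus strand, of which RefSeq lists 102 as V segments and 60 as pseudogenes. It also gave the starts of IgkJ1 to IgkJ5, of an intronic enhancer entry (iEk) and of the constant gene (Ck), with 10 genes that are not Ig kappa genes. The window was divided into a 5 prime flank (67000000 to 67505630), a distal V part to 69079601 with 73 V genes, a proximal V part to 70653573 with 89 V genes, a V-J interval to 70672556, a J-C part to 70726429 and a 3 prime flank to 71000000. The distal part held 48 plus-strand and 25 minus-strand V genes, and the proximal part 29 and 60.

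The cells were primary small pre-B cells purified by flow cytometry from mouse bone marrow. 1 group was wild type (WT), 1 was Brwd1-/- (KO), and 1 was WT cells cultured for 2 hours with oligomycin A at 126 nM, which blocks ATP synthase in mitochondria (ATPneg in the labels). Each target had 2 libraries per condition, which the series' design text calls biological replicates, so 28 libraries of WT and KO cells had counts. The 8 oligomycin libraries, of NIPBL, RAD21, SMC3 and WAPL, had peak lists without counts, and the depth behind them is unknown. WT and KO cells were not cultured, per the labels, so culture and oligomycin cannot be told apart. The strain, age and pooling of the mice and the deleted part of Brwd1 are not given in the sources used here.

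Ig kappa genes are assembled in small pre-B cells by RAG1 and RAG2, which join 1 of many V genes to a J segment upstream of the single constant gene. V genes lie in both orientations, so joining either deletes or inverts the DNA between them and J. Cohesin is a ring of SMC1, SMC3 and RAD21 that extrudes chromatin loops. NIPBL loads it and drives its movement, WAPL releases it, and CTCF bound to DNA halts it. The interval between the V and J genes is known for the CTCF-bound elements Cer and Sis, which restrain the use of the nearest V genes. An intronic enhancer lies between the J segments and the constant gene, and further enhancers lie downstream of it. BRWD1 is a bromodomain protein that binds acetylated histones and is required for normal kappa rearrangement.

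Several properties of the libraries bear on every result below. Reads over all regions of a target ran from 3784506 to 30496715 per library, and 0.0685% to 0.152% of them fell in the window. Every KO library was shallower than every WT library for 5 targets, so there depth and genotype cannot be told apart. The gap was widest for NIPBL, RAD21 and SMC3 (3784506 to 7415143 reads in KO, 15416715 to 24962590 in WT). It was smaller for the libraries labelled H3K4me1 (16048349 and 16794584 against 21829239 and 26637928) and H3K27ac (23013317 and 21859316 against 27183753 and 28358008). For WAPL the order was reversed, with 30496715 and 28011360 reads in KO and 21488840 and 21978527 in WT. Depth and genotype cannot be told apart there either. CTCF WT 2 (17055094 reads) was deeper than the other CTCF libraries (3880112 to 5033230), and its values stood apart at CTCF sites. RAD21 KO 2 differed from RAD21 KO 1, with a peak at 1 of the 54 CTCF sites of the window against 30. For the histone marks, peak names in the KO lists labelled H3K27ac and in the WT lists labelled H3K4me1 carry the name of the other mark. Of 3539 regions of the H3K4me1 table over a gene start, 3268 and 3188 had a peak in the WT libraries labelled H3K4me1 and 1289 and 1323 in those labelled H3K27ac. In KO the numbers were 708 and 742 for the label H3K4me1 and 412 and 420 for H3K27ac. Under either label, KO and WT libraries may therefore be of different marks, and each histone difference below may compare marks as well as genotypes. Gene starts are usually rich in H3K27ac and poor in H3K4me1, so the histone results below are given for "libraries labelled" with a mark, and their identity was not settled. For the KO histone libraries the genotype field reads WT while the titles say knockout, and grouping followed the titles. Among the regions labelled H3K4me1, 2 of 5 T cell markers, 1 of 5 myeloid and 1 of 4 erythroid markers had a region at their start. Their summed levels were 0.753 to 2.498 CPM per library (reads relative to a library's reads over all regions of that target, after edgeR's TMM scaling). Among the regions labelled H3K27ac the T cell markers summed to 0.952 to 1.37 CPM and the myeloid ones to 1.21 to 1.46. The erythroid sum was higher there, 3.50 to 5.14 CPM, from Hbb-b1 alone. In the SMC3 regions no T cell or myeloid marker had one. The part of other cells in the SMC3 results was not tested.

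No sequence of an Ig kappa gene was at hand, and the sequences shown are those of the promoters of 2 genes just downstream of the locus that carry results below. They are the 250 bases before the start, from RefSeq on GRCm38.p6, which is not the build of the data. Rpia (minus strand, chr6:70792176-70792425) encodes ribose 5-phosphate isomerase A, and its start lay in CTCF and SMC3 regions. Eif2ak3 (plus strand, chr6:70844265-70844514) encodes PERK, a kinase of the endoplasmic reticulum stress response, and it lost signal in the libraries labelled H3K4me1. Capitals mark CCAAT or its complement ATTGG.
Rpia: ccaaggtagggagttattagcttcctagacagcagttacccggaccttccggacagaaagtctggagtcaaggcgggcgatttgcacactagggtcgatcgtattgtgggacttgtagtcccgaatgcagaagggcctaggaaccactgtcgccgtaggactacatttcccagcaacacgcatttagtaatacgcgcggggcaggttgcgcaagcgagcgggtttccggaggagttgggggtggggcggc
Eif2ak3: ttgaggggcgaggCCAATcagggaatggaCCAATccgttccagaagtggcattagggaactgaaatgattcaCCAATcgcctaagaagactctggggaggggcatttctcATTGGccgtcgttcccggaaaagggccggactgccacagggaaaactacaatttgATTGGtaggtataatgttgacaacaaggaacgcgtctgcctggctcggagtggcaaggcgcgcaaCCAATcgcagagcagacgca
CCAAT was searched on both strands and occurred 6 times before Eif2ak3 and 0 times before Rpia, while 33.8% of 32851 promoter windows of this length held it.

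SMC3, an ATPase subunit of cohesin, had peaks at more of the CTCF sites of the Ig kappa locus in KO cells than in WT cells, from the 5 prime flank through the V genes to the 3 prime flank. A CTCF site here is a CTCF peak of WT 1 that overlaps one of WT 2, and the window held 54. SMC3 peaks lay at 2 and 2 of them in WT and at 35 and 35 in KO. The 2 in WT, chr6:69167026-69167147 and chr6:69466341-69466465, had peaks in most libraries of the targets other than CTCF, the histone labels included. Both lie on sequence with more than 100 input reads per kb, and the first had no CTCF peak in KO. The SMC3 table had 43 regions at CTCF sites, of which 41 had a peak in a KO library and in no WT library and 2 had peaks in both. Most of these regions are thus in the table through the KO libraries, where they are high, and the counts and medians over them describe the members and give no support for a rise. Of the 43, 41 were called higher and 0 lower, and their median log2 fold change was 3.49. Over all SMC3 regions 40.2% passed the test in either direction and 22.1% were higher. Of the SMC3 regions at CTCF sites in the whole table, 96.4% were higher, with a median of 3.62, and they entered the table in the same way. In the window 49 SMC3 regions rose and 18 fell of 167 tested, and 55 rose and 11 fell when the libraries were scaled on the regions with the lowest counts. At CTCF sites the higher calls were 5 of 5 in the 5 prime flank, 15 of 16 in the distal V part, 11 of 12 in the proximal V part, 3 of 3 in the V-J interval, 2 of 2 in the J-C part and 5 of 5 in the 3 prime flank. In 42 of these 43 regions both KO libraries lay above both WT libraries.

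**Figure D1:**
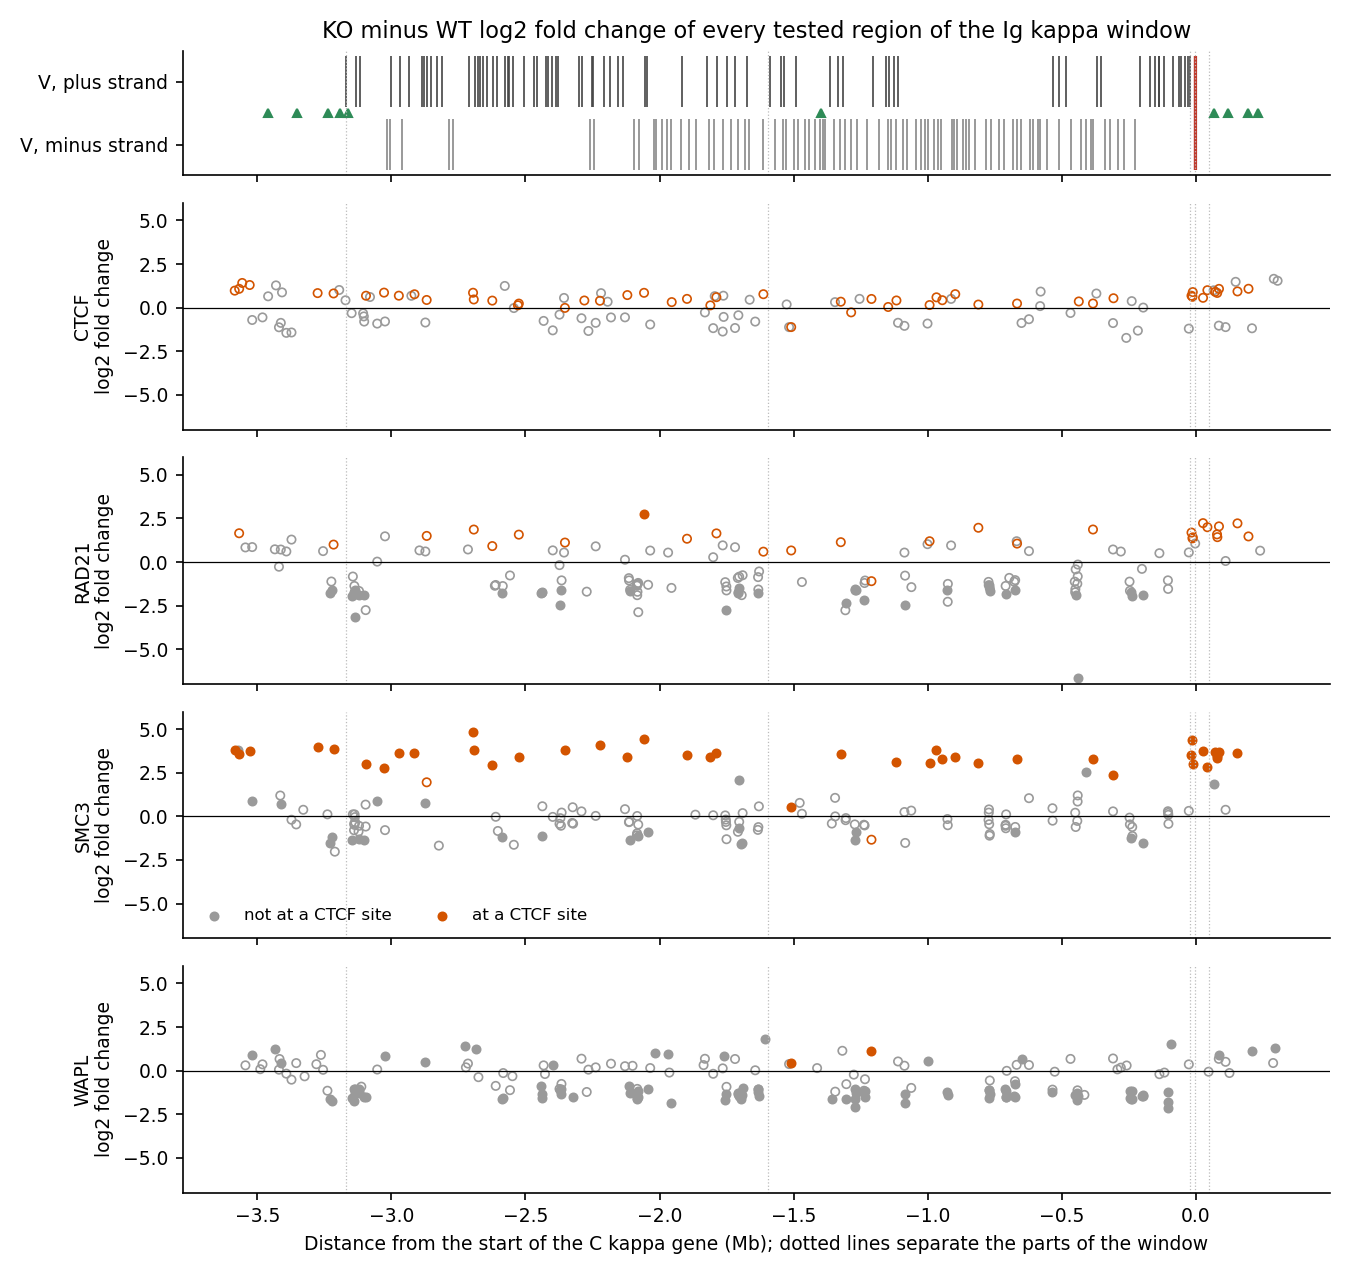
Log2 fold change (KO minus WT, edgeR) of every tested region of CTCF, RAD21, SMC3 and WAPL against its distance from the start of Ck in Mb. Filled points passed an adjusted p under 0.05, orange points overlap a CTCF site, and the top panel shows V gene starts by strand (black and grey lines), the J-C genes (red) and the 10 other genes (green triangles). SMC3 points at CTCF sites form a band near 3.49, while RAD21 and WAPL points away from CTCF sites lie mostly below 0, and the lowest RAD21 point is a region with no reads in either KO library.

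All CTCF-site regions of SMC3 between the V genes and the end of the J-C part rose. At chr6:70658985-70660074, 5412 bp beyond the start of Igkv3-1, the last V gene before the interval, SMC3 stood at 38.7 and 41.9 CPM in KO and at 4.55 and 2.61 in WT. Both KO libraries were far above both WT libraries, and the log2 fold change was 3.49 ± 0.29 (SE; edgeR quasi-likelihood test, Benjamini-Hochberg adjusted p = 6.05e-04). The next site, chr6:70663123-70663424, held 9.49 and 10.6 CPM in KO against 0.650 and 0.311 in WT, a log2 fold change of 4.36 ± 0.39. The site nearest to the J segments, chr6:70664254-70664795, ends 7761 bp before IgkJ1 and held 19.7 and 20.3 against 2.73 and 2.18 CPM, a difference of 3.02 ± 0.22. In none of these 3 regions did the groups overlap. Downstream of the constant gene, chr6:70702410-70702862, with its centre 26.2 kb past the Ck start, rose from 0.714 and 1.37 to 14.0 and 14.9 CPM (3.77 ± 0.35). The last site of the J-C part, chr6:70718781-70719248, 42.6 kb past the Ck start, rose from 2.14 and 3.48 to 19.2 and 20.7 CPM (2.82 ± 0.29). No SMC3 region lay between these sites, over the J segments, iEk or Ck.

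CTCF itself did not pass the test at any of these sites, nor anywhere in the window. At chr6:70659107-70660157 CTCF held 53.9 and 57.5 CPM in KO, 53.6 in WT 1 and 16.3 in WT 2, with a log2 fold change of 0.69 ± 0.61. WT 1 thus lay beside the KO libraries, and WT 2 alone was low. The same order held at chr6:70718615-70719201, with 35.4 and 34.1 CPM in KO, 26.7 in WT 1 and 8.48 in WT 2. Of 122 CTCF regions tested in the window, 0 were called by edgeR and 0 by DESeq2, with 5 at an unadjusted p under 0.05, and 0.0396% of all CTCF regions were called (0.00792% higher, 0.0317% lower). These counts hang on the WT libraries: without WT 1 the window had 111 calls and without WT 2 it had 9. CTCF peaks were kept in KO at 53 and 51 of the 54 sites. By the authors' peak score the sites of the V-J interval, the J-C part and the 3 prime flank had higher medians in WT 1 (32.1, 41.9 and 30.4) than the distal V part (20.2), the proximal V part (18.0) and the whole list (13.8). In KO the 3 prime flank had the highest medians (77.6 and 91.9). These are taken over WT sites, and its sites from 70754457 to 70756361 share a single KO 1 peak, whose score counts once for each.

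RAD21, the kleisin subunit that closes the cohesin ring, was uneven between its KO libraries at the same sites. At chr6:70659171-70660133 it held 25.4 CPM in KO 1, 1.38 in KO 2, 4.003 in WT 1 and 4.32 in WT 2. KO 1 was above and KO 2 below both WT libraries, and the difference of 1.69 ± 1.18 on the log2 scale did not pass the test. At chr6:70702440-70702864 the values were 9.63, 0.969, 0.917 and 1.34 CPM in the same order, and KO 1 was again the only high library. Away from CTCF sites the same split was seen over IgkJ3 and IgkJ4 (chr6:70672927-70673868), with 17.3, 1.38, 7.01 and 1.91 CPM. Of 28 RAD21 regions tested at CTCF sites, 1 rose, and 28 of 30 were called higher without KO 2 but 2 of 30 without KO 1. The region that rose, chr6:68618445-68618862, lies 1884 bp from the start of Igkv2-95-1, with 9.37 and 9.55 CPM in KO against 1.46 and 1.34 in WT (2.75 ± 0.26; edgeR quasi-likelihood test, Benjamini-Hochberg adjusted p = 0.0430). There the KO libraries were close to each other and apart from WT, and SMC3 at chr6:68618261-68618827 went from 1.43 and 0.622 to 24.0 and 20.5 CPM. At this site RAD21 had a peak in KO 1 and SMC3 in both KO libraries, and neither had one in WT. Both regions may thus be in their tables through KO, where they are high, and they give no support for a rise. No RAD21 region at a CTCF site was called with the replicate block, no filter or input-subtracted counts.

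**Figure D2:**
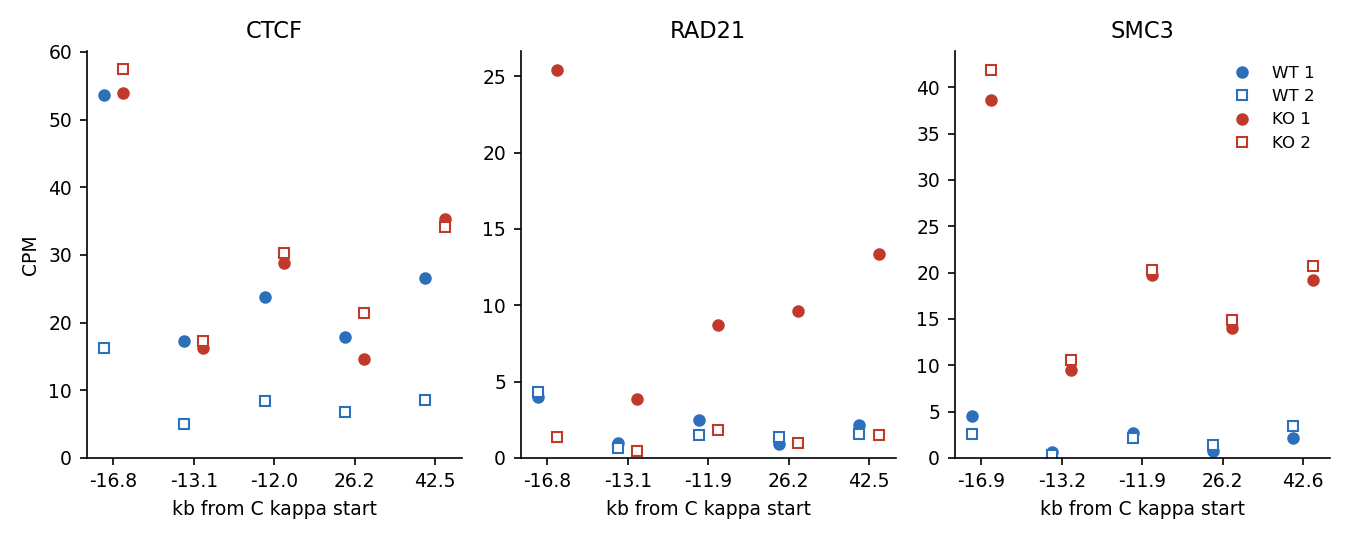
CPM in each library at the 5 CTCF-site regions of the V-J interval and the J-C part, for CTCF, RAD21 and SMC3, at equal spacing and labelled by the distance of the region's centre from the Ck start in kb. Circles are replicate 1 and squares replicate 2. SMC3 in both KO libraries (9.49 to 41.9 CPM) is above WT (0.311 to 4.55) at every site, RAD21 is high in KO 1 only, and CTCF is low in WT 2 only.

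Among the V genes themselves few starts carried a cohesin or CTCF peak. Between 0 and 4 of the 162 V genes had a peak within 1 kb of the start in any one library of CTCF, NIPBL, RAD21, SMC3 or WAPL. The SMC3 region over the start of Igkv7-33 (chr6:70009059-70009462) held 12.8 and 10.6 CPM in KO and 1.30 and 1.12 in WT (3.26 ± 0.27). SMC3 also rose by 3.28 ± 0.34 beside Igkv8-19 (chr6:70292215-70292428) and by 2.56 ± 0.41 beside Igkv8-21 (chr6:70264710-70264841). Igkv7-33 and Igkv8-19 coincided with CTCF sites and Igkv8-21 did not. The largest SMC3 gain of the distal part was at chr6:67980750-67981035, 5777 bp from Igkv17-121, from 0.325 and 0.249 to 8.78 and 8.55 CPM. In the 3 prime flank SMC3 rose over the start of Rpia (chr6:70742007-70742186), from 1.88 and 1.62 to 6.41 and 6.08 CPM, a log2 fold change of 1.83 ± 0.27. CTCF over that start held 14.02 and 18.9 CPM in KO, 13.2 in WT 1 and 3.80 in WT 2, and did not pass the test. The highest SMC3 level of the 3 prime flank was at chr6:70761728-70762415, with 29.7 and 31.1 CPM in KO and 2.66 and 2.05 in WT (3.68 ± 0.21).

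2 SMC3 regions at CTCF sites were not called higher. The one near Igkv17-127 (chr6:67807949-67808272) held 12.6 and 12.2 CPM in KO, 5.39 in WT 1 and 1.00 in WT 2. The one near Igkv13-57-2 (chr6:69466331-69466553) held 20.9 and 25.4 CPM in KO, 104 in WT 1 and 13.2 in WT 2, so the high WT 1 value set its negative sign. The region has 861 input reads per kb. The count of 41 higher regions ranged from 36 to 43 when 1 library was left out, and from 40 to 42 with the other scalings, DESeq2, no filter or input-subtracted counts. Without WT 2, 1 of these regions was called lower, and in the other fits 0 were.

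Away from CTCF sites the cohesin subunits and WAPL were found over long domains, mostly in the V parts. Regions of at least 1 kb made up 27 of RAD21, 27 of SMC3 and 31 of WAPL, and they held 61.7%, 63.2% and 63.4% of the region length of their targets in the window. Length itself comes from peaks joined over libraries, and the long peaks were mostly those of WT: 21 of the 27 RAD21, 26 of the 27 SMC3 and 30 of the 31 WAPL regions had a peak in WT and in no KO library. They are in the set through the group where they are high, and the counts below describe them and give no support for a fall. Of these long regions, RAD21 fell in 22 and rose in 0, SMC3 fell in 17 and rose in 1, and WAPL fell in all 31. Over all regions 23.5% of RAD21 and 40.7% of WAPL regions passed the test, with 21.2% and 27.6% lower and 2.3% and 13.1% higher, and SMC3 had 18.1% lower. Among all long regions of the genome, 80.5% of RAD21, 77.2% of SMC3 and 98.8% of WAPL regions were lower. The long regions were shared between targets: 25 of the 27 RAD21 regions overlapped a long SMC3 region, and 23 a long WAPL region. In the other direction 21 of 27 long SMC3 and 26 of 31 long WAPL regions overlapped a long RAD21 region. The distal and proximal V parts held 13 and 11 of the RAD21, 15 and 9 of the SMC3 and 18 and 11 of the WAPL regions. The V-J interval and the J-C part together held 1, the SMC3 region that rose, and 0, 1 and 1 of the long regions came within 1 kb of a gene start.

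At the edge of the 5 prime flank, near the interleukin 23 receptor gene Il23r, SMC3 and RAD21 shared a long domain and WAPL had one beside it. SMC3 at chr6:67444808-67450926 held 14.7 and 19.8 CPM in KO and 48.3 and 53.1 in WT (-1.55 ± 0.18). RAD21 at chr6:67444844-67450868 held 8.96 and 17.2 CPM in KO and 43.9 and 45.5 in WT (-1.78 ± 0.38). WAPL over the neighbouring chr6:67452146-67458262 held 8.32 and 8.94 CPM in KO and 27.6 and 30.3 in WT, a log2 fold change of -1.74. No KO library reached a WT library in any of the 3. Within the V genes, SMC3 fell at chr6:67570070-67576077 near Igkv1-135 from 45.5 and 52.6 to 17.8 and 21.2 CPM. It fell at chr6:68979718-68983268 near Igkv4-79 by 1.56 on the log2 scale, and at chr6:70474358-70480786 near Igkv3-12 from 45.7 and 51.8 to 16.4 and 17.1 CPM. No SMC3 region of this length lay between the last of these and the V-J interval.

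In the window as a whole RAD21 had 1 higher and 35 lower calls of 160 tested, and WAPL 20 higher and 81 lower of 178. The window median of WAPL lay 1.06 to 1.07 below the median of all WAPL regions on the log2 scale with each of 4 scalings, and that of RAD21 0.66 to 0.67 below. A scaling shifts nearly all regions of a target alike, so this agreement was fixed in advance and says nothing about the scaling. The share of lower calls moved with it. Scaled on the regions with the lowest counts, which raises the median of all RAD21 regions from -0.40 to 0.81 and that of WAPL from 0.07 to 0.80, RAD21 had 30 higher and 1 lower and WAPL 55 higher and 29 lower. The long regions kept negative medians under this scaling (-0.41 for RAD21, -0.69 for WAPL and -0.68 for SMC3), with 0, 18 and 11 called lower. No RAD21 region of the window (0) was called without either WT library, with input-subtracted counts or with no filter, where 55 had an unadjusted p under 0.05 in both of the last fits. With DESeq2 RAD21 had 18 higher and 7 lower. Without KO 1 there were 55 calls and without KO 2 there were 109. WAPL calls in the window came to 5 without KO 1 and 7 without KO 2, with the long regions among them at 5 and 6. Higher WAPL calls lay over input-rich sequence. Of 80 tested regions with at least 100 input reads per kb 20 rose and 1 fell, and of 98 with fewer 0 rose and 80 fell. For RAD21 all 36 calls were in regions with fewer than 100 input reads per kb. The authors' input reads, relative to each table, were 1.103 to 1.18 times as high in KO as in WT over the RAD21, SMC3 and WAPL regions of both V parts, and their part in these results was not tested.

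NIPBL, the cohesin loader, had 66 regions in the window, of which 1 rose and 0 fell, while 1.57% of all NIPBL regions were called (0.968% higher, 0.604% lower). The V-J interval and the J-C part held none. The region that rose, chr6:69466340-69466465 near Igkv13-57-2, held 19.1 and 30.1 CPM in KO and 9.77 and 9.13 in WT (1.38 ± 0.21). It lies on the input-rich sequence named above, with 508 input reads per kb, and it was not called without KO 2 or without either WT library. With library totals as the scaling 1 NIPBL region rose and 6 fell, and with low-count scaling 3 rose and 1 fell. NIPBL peaks in the window numbered 20 and 63 in WT and 3 and 2 in KO, or 0.0770% and 0.113% of each WT list and 0.129% and 0.0977% of each KO list, as the whole lists went from 25979 and 55995 peaks to 2333 and 2048.

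Cohesin at CTCF sites was next compared between conditions by peak calls. SMC3 peaks lay at 2 and 2 of the 54 CTCF sites in WT, at 35 and 35 in KO (64.8%), and at 38 and 34 after oligomycin (70.4% and 63.0%). SMC3 in both KO libraries had a peak at 26 sites and both oligomycin libraries at 34, with 21 sites in common, 5 in KO alone, 13 after oligomycin alone and 15 in neither. The KO and oligomycin comparisons share the WT libraries. All 15 sites in neither set lay among the V genes, which held 35 of the 54 sites. Over the 16606 CTCF sites of the genome the shares were 61.1% and 61.0% in KO and 94.5% and 93.6% after oligomycin. The locus thus stood near the genome in KO and below it after oligomycin.

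After oligomycin the sites without an SMC3 peak lay mostly in the V parts. SMC3 peaks were at 14 and 13 of 20 CTCF sites in the distal V part and at 6 and 3 of 15 in the proximal V part. In the 5 prime flank they were at 5 and 5 of 6, and in the V-J interval, the J-C part and the 3 prime flank at all 4, 2 and 7 sites in both libraries. For the V parts together this came to 57.1% and 45.7% after oligomycin, against 60% in each KO library. The shares were also compared at like CTCF scores. Among V sites at or below their median CTCF score of 18.0, 44.4% and 38.9% of 18 sites had an SMC3 peak, against 90.6% and 89.1% of all sites in that range. Above it the shares were 70.6% and 52.9% of 17 sites against 98.9% and 98.6%. In KO the lower range had a peak at 61.1% and 55.6% of V sites against 45.1% and 45.2% of all sites, and the upper range at 58.8% and 64.7% against 79.3% and 78.9%. The 2 proximal V sites with an SMC3 peak in WT had one in every KO and oligomycin library of SMC3. They also had peaks in most libraries of the targets other than CTCF, and both are among the 18 sites of the lower range. The RAD21 oligomycin libraries differed from each other, with peaks at 15 and 45 of the 54 sites. They had 0 and 15 of the 20 distal V sites, 2 and 11 of the 15 proximal V sites, and 4 and 7 of the 7 sites of the 3 prime flank. NIPBL and WAPL had a peak at 1 to 3 of the 54 sites in every library, mostly at the 2 proximal V sites named above.

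**Figure D3:**
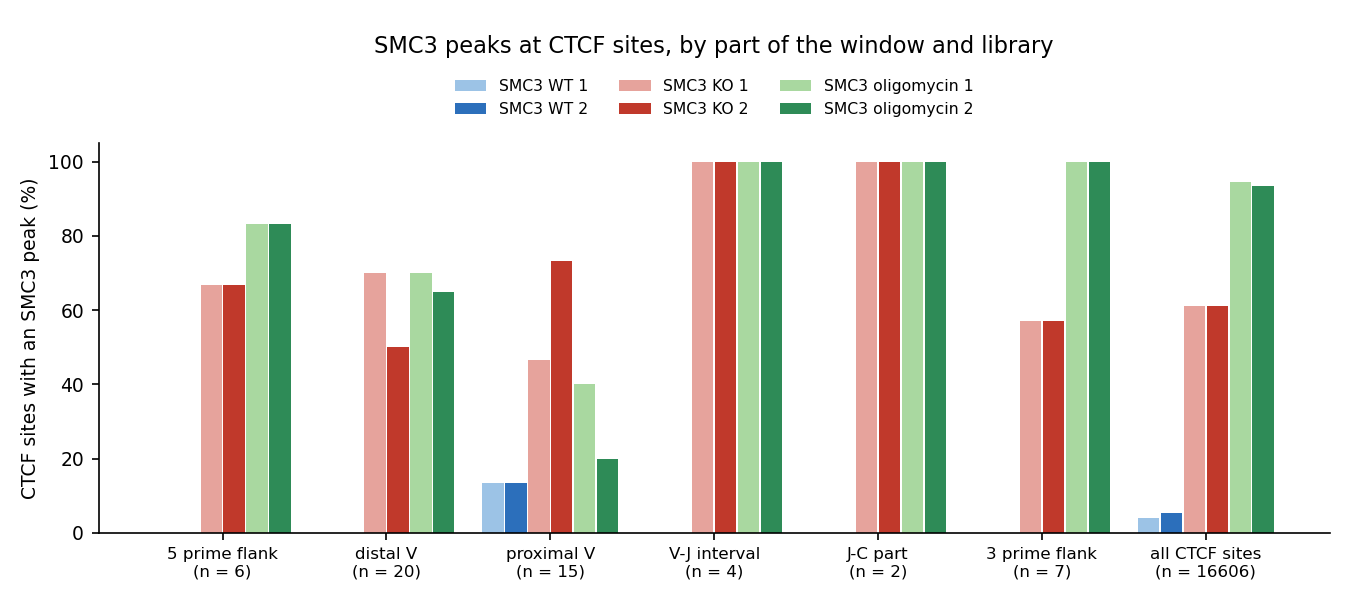
Percent of CTCF sites with an SMC3 peak in each of the 6 SMC3 libraries, by part of the window and over all 16606 sites, with the number of sites under each group. Both WT libraries have bars in the proximal V part and over all sites only, KO bars reach 100% in the V-J interval and the J-C part, and oligomycin bars fall to 40% and 20% in the proximal V part. The sites are few in each part, and their number limits the precision. The 2 sites behind the WT bars of the proximal V part had a peak in all 6 SMC3 libraries and in most libraries of the targets other than CTCF.

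Most sites with a peak in WT had none in the other conditions. WT consensus sites, with a peak in both WT libraries, numbered 74 for RAD21, 63 for SMC3, 92 for WAPL and 17 for NIPBL, and 2 of each of the RAD21, SMC3 and WAPL sets lay at a CTCF site. After oligomycin both libraries kept 3 of 74 for RAD21 (4.05%), 4 of 63 for SMC3 (6.35%), 3 of 92 for WAPL (3.26%) and 6 of 17 for NIPBL (35.3%). Some kept sites lie where most libraries of any target had a peak. The locus chr6:69167022-69167235 had one in both WT and both oligomycin libraries of each target here. In all, 26 of the 28 WT and KO libraries had one there. At chr6:68278058-68278264 all 8 oligomycin libraries and 21 of the 28 had one. The CTCF site chr6:69466341-69466465 had a peak in every SMC3 library. Whether such sites hold binding signal was not tested. Taken library by library, the window kept 4.05% each time for RAD21 and 6.35% each time for SMC3. For WAPL it kept 3.26% and 5.43%, and for NIPBL 47.1% each time. The genome shares by library were 4.10% and 3.17% for RAD21 and 7.74% and 8.16% for SMC3. They were 5.05% and 7.13% for WAPL and 43.7% and 33.7% for NIPBL. In KO the 2 libraries kept 26 and 30 of the 92 WAPL sites (28.3% and 32.6%), against 40.1% and 46.3% of WAPL sites in the genome, and 2 and 2 of the 63 SMC3 sites (3.17% each, against 1.78% and 1.49%). The number of peaks in a list moves with these shares: the WAPL lists held 76389 and 81317 peaks in WT and 3280 and 4623 after oligomycin.

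A single peak over the J segments stood apart. In all 8 oligomycin libraries, whatever the target, a peak of 340 to 407 bp spanned nearly all of the stretch from the start of IgkJ1 (70672556) to that of IgkJ2 (70672909). In WAPL it ran from 70672554 to 70672902 and from 70672558 to 70672905, and its score of 101 and 122 was the highest of 3280 and 4623 peaks. In NIPBL its score ranked 36 of 14522 and 2 of 10224. In SMC3 it ranked 159 of 40667 and 547 of 39437, and in RAD21 1200 of 16375 and 608 of 35784. None of the 28 WT and KO libraries had a peak there. Of 996 loci in the genome with a peak in all 8 oligomycin libraries, 2 had none in the 28 others, and the second was chr16:96281082-96281237, between regions that the deposited annotation places in the bodies of Brwd1 and BC002163. Oligomycin libraries have no counts, and no input of treated cells was analysed here, so the source of these peaks was not tested. Whether they are binding signal at all is not known, and their scores and ranks are given as the lists have them.

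In the libraries labelled H3K4me1 the signal around the constant gene fell in KO. The region chr6:70673745-70675612, which covers the starts of IgkJ5 and of the intronic enhancer, held 2.92 and 3.14 CPM in KO and 12.5 and 11.4 in WT (-1.97 ± 0.14; edgeR quasi-likelihood test, Benjamini-Hochberg adjusted p = 1.7e-42). Over the start of Ck (chr6:70675789-70676915) it held 5.22 and 3.78 CPM in KO and 11.99 and 13.6 in WT (-1.52 ± 0.12). Downstream of the gene, where the 3 prime enhancers lie, 3 regions fell. At chr6:70684777-70685643, 8.78 kb past the Ck start, the signal went from 4.75 and 6.15 to 3.40 and 2.38 CPM. At chr6:70691380-70694032 it went from 20.6 and 19.3 to 9.42 and 9.70 CPM (-1.05), the highest level of the part, and at chr6:70694251-70695606 from 7.90 and 9.07 to 4.62 and 4.53 CPM. In each of these 5 regions both KO libraries were below both WT libraries. Only chr6:70691380-70694032 among them had a peak in a KO library. The others are in the table through WT libraries, where they are high, so their counts and values describe them and give no support for a fall. Of the 10 regions tested in the J-C part 5 fell and 2 rose, while 16.4% of all regions were called (6.44% higher, 9.98% lower), and 5 fell in every alternative fit. The 2 that rose were chr6:70688092-70688560 and chr6:70710429-70710550, and 0 to 2 regions rose in the alternatives.

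In the V-J interval 1 region rose and 1 fell in the same libraries. At chr6:70666523-70667719 the signal rose from 4.66 and 4.997 to 7.84 and 7.09 CPM, a log2 fold change of 0.62. At chr6:70668997-70669395 it fell from 2.77 and 2.61 to 1.09 and 1.22 CPM (-1.21), and only the WT libraries had a peak there. The libraries labelled H3K27ac rose over the first of these too, at chr6:70667174-70667723, from 1.83 and 1.69 to 2.87 and 2.48 CPM (0.61). In the J-C part the same libraries changed little: of 11 regions 1 fell and 1 rose, while 16.5% of all regions were called (5.87% higher, 10.6% lower). The one that fell lies just before the start of iEk (chr6:70674877-70675115), with 0.167 and 0.266 CPM in KO and 0.762 and 0.624 in WT. It had a peak in the WT libraries only, and it was not called with DESeq2. Over Ck (chr6:70676435-70676892) the values were 1.54 and 1.73 CPM in KO and 1.71 and 1.87 in WT, and the groups overlapped.

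**Figure D4:**
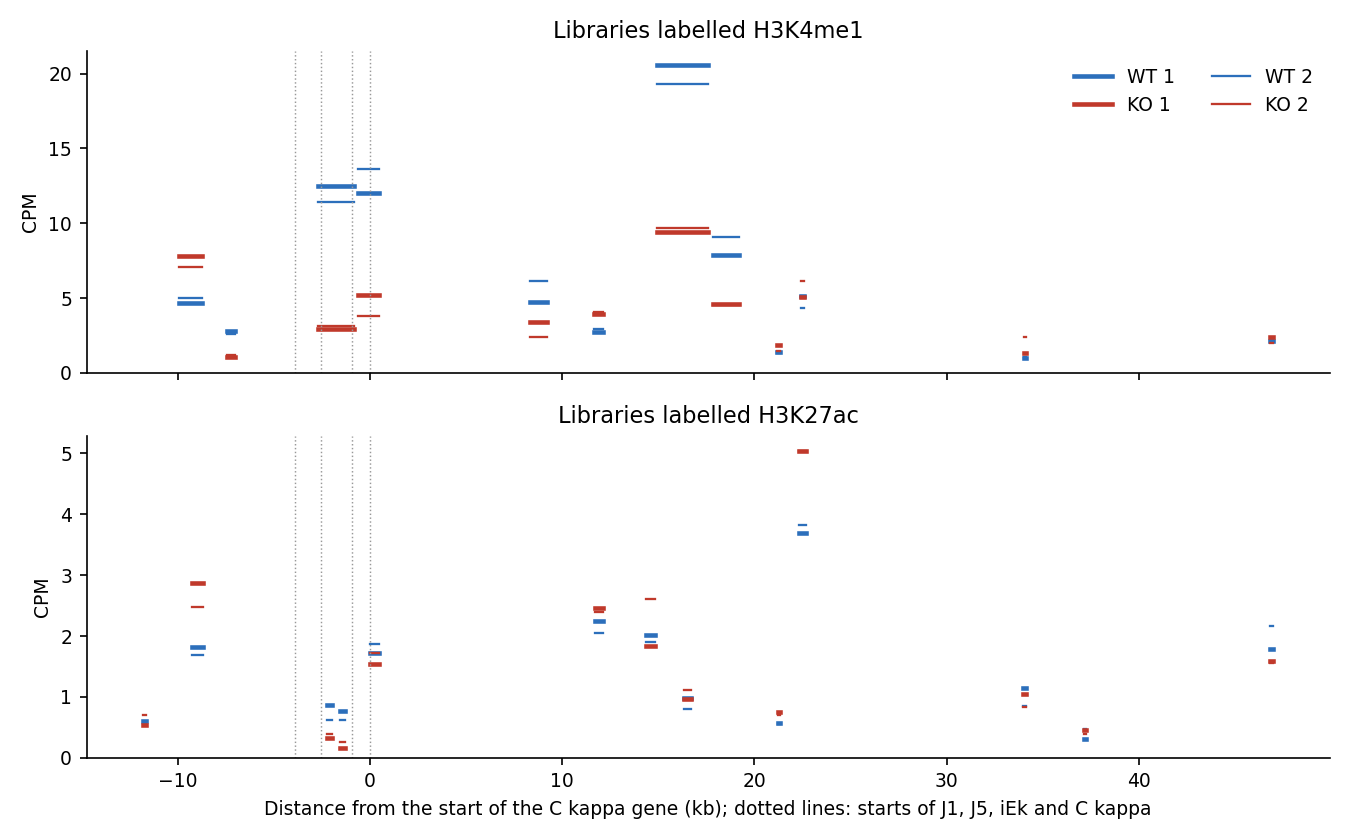
CPM of each region of the libraries labelled H3K4me1 (top) and H3K27ac (bottom) around the J-C part, drawn over the region's extent against the distance from the Ck start in kb, with 1 line per library. Dotted lines mark the starts of J1, J5, iEk and Ck. In the top panel both KO lines are below both WT lines over J5 to Ck and at 3 of the regions downstream, and the bottom panel shows smaller differences.

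At the V genes the libraries labelled H3K4me1 fell as well. 13 regions lay within 1 kb of a V gene start, of which 8 fell and 0 rose (median log2 fold change -1.33). Of the 162 V genes, 8 and 6 had a peak within 1 kb of the start in the WT libraries and 2 and 3 in KO. Many of the regions may thus be in the table through WT, where they are high, and their counts and values give no support for a fall. Igkv12-46 (chr6:69714514-69714948) held 1.28 and 1.16 CPM in KO and 4.28 and 4.65 in WT. Igkv1-117 (chr6:68071135-68071825) held 1.70 and 1.63 against 4.61 and 4.15 CPM, and Igkv1-122 (chr6:67966712-67967521) 2.31 and 2.03 against 4.75 and 3.61. Igkv1-110 fell by 2.25, Igkv10-96 by 1.33 and Igkv19-93 by 1.36 on the log2 scale, and Igkv12-44 fell in 2 regions, by 1.85 and 1.86. In these 8 regions no KO library reached a WT library. Igkv9-129, Igkv4-83, Igkv12-38, Igkv1-35 and Igkv8-34 did not pass the test, and Igkv12-38 had higher values in KO (1.15 and 0.755 CPM) than in WT (0.376 and 0.461). The number lower was 6 with DESeq2 and 7 or 8 in the other fits, of which the one without KO 2 also called 1 higher. The V genes with a called loss lay in both parts, 5 distal regions and 3 proximal ones, and most V genes had no region at their start.

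**Figure D5:**
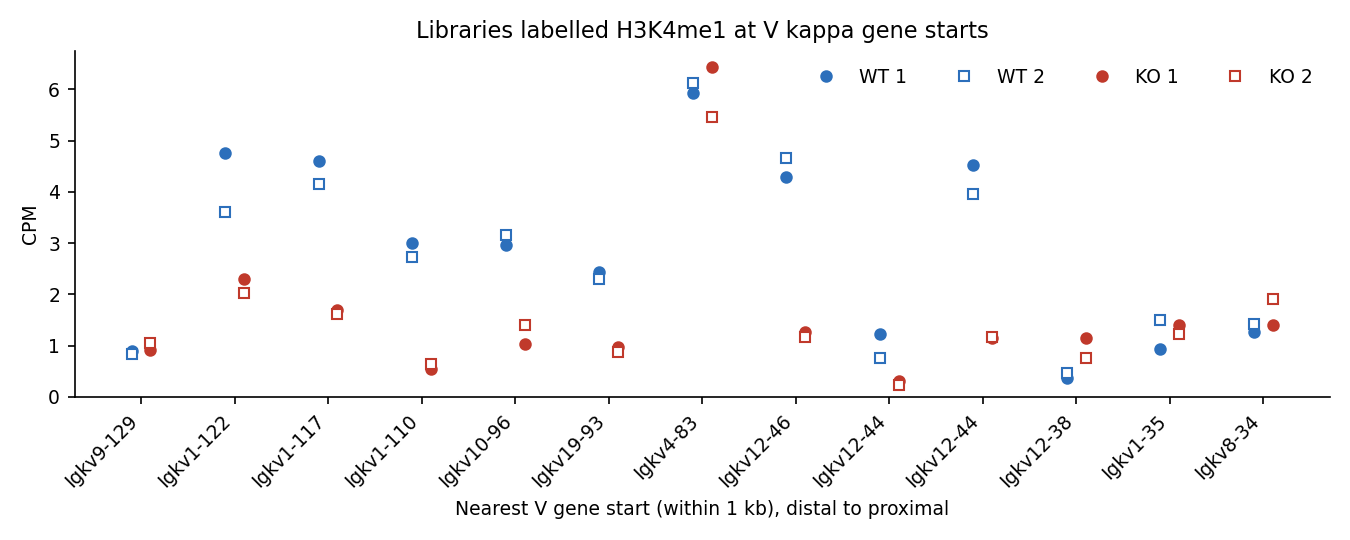
CPM in the 4 libraries labelled H3K4me1 at the 13 regions within 1 kb of a V gene start, from distal to proximal. Circles are replicate 1, squares replicate 2, blue WT and red KO. KO values are below WT at the 8 regions from Igkv1-122 to Igkv12-44 other than Igkv4-83. KO values are above WT at Igkv9-129 and Igkv12-38, and the genotypes overlap at Igkv4-83, Igkv1-35 and Igkv8-34.

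Gene starts outside the locus fell in the same libraries, in the flanks and in the genome. The start of Serbp1, an mRNA binding protein gene of the 5 prime flank, went from 6.21 and 6.73 to 1.82 and 1.28 CPM, and that of Eif2ak3 in the 3 prime flank from 8.37 and 9.19 to 1.46 and 1.39 CPM. Beside the start of Rpia (chr6:70742379-70742953) the signal fell by 2.01 on the log2 scale. Of the 3539 regions over a gene start in the whole genome, 86.0% were lower and 5.03% higher, with a median of -1.47, and far more of them had a peak in WT than in KO. The median at V gene starts, -1.33, was close to that value, but it covers regions within 1 kb of a start and not only those over it. Fewer cells with the mark, less of it per cell, and WT and KO libraries of different marks cannot be told apart here. The libraries labelled H3K27ac had 18 regions within 1 kb of a V gene start, of which 1 rose (Igkv12-98) and 1 fell (Igkv13-82, by 0.11). Over the window they had 26 higher and 18 lower calls of 242, and the libraries labelled H3K4me1 16 higher and 37 lower of 205. The split moved with scaling on low-count regions, to 16 higher and 46 lower and to 10 higher and 42 lower, and with library totals, to 31 and 11 and to 22 and 32. DESeq2 gave 2 higher and 10 lower and 1 higher and 22 lower.

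Genes that act on the locus were followed from a list of 34, with recombinase genes, transcription factors of the kappa enhancers, end-joining genes, Ctcf and Brwd1. In the libraries labelled H3K4me1, 31 had a region at the start, of which 28 fell and 0 rose, beside 86.0% lower among all regions over a gene start. B lineage factors were among those that fell, with Pax5 at 1.03 and 1.05 CPM in KO and 4.04 and 3.84 in WT, and Ebf1 at 4.74 and 5.58 in KO and 12.6 and 12.1 in WT. For SMC3, 4 had one and all 4 rose, beside 22.1% of all SMC3 regions: the kappa enhancer factors Irf4 (2.77 ± 0.33) and Irf8 (3.45 ± 0.39), Pou2f2 (3.54 ± 0.23), which binds the octamer of V promoters, and the end-joining gene Xrcc5 (4.27 ± 0.53). In the libraries labelled H3K27ac, 18 had one, of which 8 fell and 1, Nfkb1, rose, beside 49.3% lower and 7.60% higher among all regions over a gene start. The list counts take regions within 1 kb of a start, while the shares beside them take only regions over a start. The sets are unlike, so whether the genes of the list stand apart was not tested. For SMC3 the share among all regions at gene starts was not taken, so whether its 4 genes stand apart was not tested. Their SMC3 levels in WT were 0.249 to 2.01 CPM. The regions may thus be in the table through KO, where they are high, and their count gives no support for a rise. Those of Pou2f2 and Xrcc5 lie within CTCF regions. Rag1 and Rag2 fell by 1.02 and 1.35 on the log2 scale in the libraries labelled H3K4me1, in regions beside their starts. The median of regions over a gene start was -1.47.

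Distal and proximal V genes were compared within each library by the ratio of reads in their regions. For WAPL the log2 ratio of distal to proximal reads was 0.10 and 0.16 in KO and 0.35 and 0.46 in WT. For CTCF it was 0.54 and 0.53 in KO against 0.30 and 0.13 in WT, and for the libraries labelled H3K27ac 0.98 and 0.99 against 1.09 and 1.07. NIPBL (0.20 and 0.13 against 0.28 and 0.24) was lower in KO as well. The groups did not overlap for these 4, and the exact two-sided permutation test gave p = 0.333 for each, the smallest value that 2 libraries against 2 allow. For RAD21 (0.74 and 1.00 against 0.79 and 0.78), SMC3 (0.46 and 0.43 against 0.45 and 0.58) and the libraries labelled H3K4me1 (0.70 and 0.64 against 0.68 and 0.71) the groups overlapped. The smallest p of this test was fixed by the number of libraries, so it says nothing about whether the ratios shifted. The WAPL difference was -0.28, and -0.02 in regions with fewer than 100 input reads per kb. In such regions the CTCF difference (0.32 over all regions) nearly vanished too. The NIPBL difference (-0.09 over all regions) changed sign there, and both values are given with the alternatives below.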

How the data were processed

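ChIP-seq of 7 targets was compared between 2 WT and 2 KO libraries each. Per the submitters' processing notes the authors used MACS2, featureCounts, BWA, edgeR, bedtools and Picard on mm9, with no versions or settings given in the sources used here. The deposited tables give raw read counts per region, on regions merged across the libraries of a target. Peak lists, 1 per library, carry the authors' peak score, used only to rank peaks within a list and to describe CTCF sites. The deposited input-subtracted tables hold whole numbers after the authors took the input away, treated as a score, and the normalized ones hold signal, the same values times 1 constant per library. For 5 targets the count tables include 1 input column per genotype, used as the authors' value. 2 per-sample columns of an outside input were not used.

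Each whole table was fitted with edgeR 4.0.16 (R 4.3.3): filterByExpr, TMM scaling, the quasi-likelihood test of KO minus WT on that target's 4 libraries, and Benjamini-Hochberg adjustment over all tested regions with a threshold of 0.05. CPM values use TMM library sizes. Alternatives were library totals, scaling on the quartile (25%) of regions with the lowest counts, DESeq2 1.42.0, no filter, the input-subtracted values in the same fit, a replicate block and leaving out each library. A lone library left in a group was assumed to vary like the others. Positions are 1-based, and peaks or regions overlap from 1 bp. Gene starts were derived from the distances in the authors' annotation. A region or peak within 1 kb of a start was counted as at it. Ratios of distal to proximal reads were compared with an exact permutation test (SciPy 1.17.1), whose smallest p is 0.333. Read intervals cover counting error only, and reads without molecular identifiers are not independent molecules. The fits recovered known changes on simulated counts. All simulated libraries had the same spread, so the case of a library apart from its partner, as for CTCF and RAD21, was not covered.

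Named regions were, per target and part, the called region with the largest change in each direction and no overlap between groups, the region with the highest mean, and in the V-J interval and J-C part every region at a CTCF site. Other named regions, including those at V gene starts, further histone regions, the pair of SMC3 regions not called at CTCF sites and the J segment peak, were chosen after their values were seen. The members and gene lists were chosen with earlier results of these data known. The B lineage marker list, and the erythroid one for SMC3, are not reported here.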

Additional observations from a re-analysis of the deposited data

How the results depend on the processing

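SMC3 calls in the window stayed within 1.5 times the count of 67 in each alternative (49 to 83 with 1 library left out). For CTCF, leaving out 1 library gave 0 to 111 calls. NIPBL had 7 calls with library totals (1 higher, 6 lower), 4 with low-count scaling, 0 after input subtraction (15 of p under 0.05 before adjustment), 0 in regions under 100 input reads per kb, and 0 to 1 without a library. RAD21 had 0 to 109 calls without a library, and 0 with no filter or input-subtracted counts. WAPL had 40 with DESeq2, 46 with input-subtracted counts and 5 to 116 without a library. The libraries labelled H3K27ac had 12 with DESeq2 and 26 to 31 without a library, and those labelled H3K4me1 23 with DESeq2. With scaling on low-count regions, 2 WAPL regions turned higher (chr6:67284753-67284941, 0.56, and chr6:70723252-70723393, 0.67), and without SMC3 WT 1 the region chr6:69466331-69466553 did (0.74, and -2.14 without WT 2). The distal to proximal log2 ratio, KO minus WT, moved with input-subtracted counts to -0.49 (NIPBL), -0.027 (RAD21), 0.11 (SMC3), -0.52 (WAPL) and -0.079 (H3K27ac). With the middle stretch of the V genes left out and the regions on either side of it compared, it was 0.33 (RAD21), 0.0017 (NIPBL), -0.060 (WAPL), -0.18 (SMC3), -0.091 (H3K4me1) and -0.041 (H3K27ac). In regions under 100 input reads per kb it was 0.0035 for CTCF, 0.14 for NIPBL and -0.016 for WAPL. Without 1 library the RAD21 ratio was -0.043 to 0.21. The causes of these moves were not tested. NIPBL sites kept after oligomycin came to 10.6% of the union of both WT lists and 11.1% to 47.1% without 1 library. SMC3 sites kept came to 0 of 15 at a stricter score. CTCF sites with an SMC3 peak in KO came to 48.1% with both libraries required and 39.4% to 64.8% without 1 library, an alternative chosen after seeing the data. Same-numbered libraries did not deviate together (correlations of -0.22 to 0.03), so the numbers do not pair them. With the replicate block the calls were 0 (CTCF), 7 (NIPBL), 0 (RAD21, with 60 at an unadjusted p under 0.05), 66 (SMC3), 87 (WAPL), 43 (H3K27ac) and 52 (H3K4me1). With crossed numbers CTCF had 0.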

Other observations

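Some values outside the comparisons above may merit a second look. After oligomycin, SMC3 peaks also lay at chr6:70693690-70694364 and chr6:70693920-70694458, over the region downstream of Ck that had the highest level in the libraries labelled H3K4me1. The scores of these peaks were 5.54 and 5.96, far under those of the J segment peak. The second locus with a peak in all 8 oligomycin libraries and no other had scores of 9.74 to 116 and lengths of 152 to 183 bp.

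All 25 SMC3 sites of the window with a peak in both KO libraries lay at CTCF sites, while 89.7% of such sites did in the genome. Near Igkv12-46, SMC3 rose at chr6:69708692-69708998 from 1.04 and 0.311 to 7.59 and 11.3 CPM, while the libraries labelled H3K4me1 fell at the start of that gene. WAPL near Igkv3-7 (chr6:70572097-70572578) fell from 1.74 and 2.18 to 0.526 and 0.335 CPM. Near Igkv4-72, chr6:69167019-69167237 had 2105 input reads per kb, and WAPL there held 48.3 and 49.2 CPM in KO and 32.5 and 39.2 in WT. CTCF regions were densest in the V-J interval, with 15.8 per 100 kb against 3.49 in the distal V part, 2.22 in the proximal V part and 3.71 in the J-C part.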
